A study of Mus musculus with 12 samples.

Results

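The transcripts of 77 mitochondrial ribosomal protein genes were followed in mouse CD4+ T cells with and without Adcy10, the gene for soluble adenylyl cyclase, an enzyme that makes cyclic AMP. The 77 genes were those whose listed name starts with Mrpl or Mrps and a digit, of 23991 gene names in all, and 48 were named for the large subunit and 29 for the small subunit. No name of a pseudogene with the ending -ps had to be left out, and all 77 genes passed the filter on low values, which kept 10126 genes.

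Mitochondria have their own ribosomes, which translate the few proteins encoded in mitochondrial DNA, all of them parts of the respiratory chain and the ATP synthase. Every protein of these ribosomes is encoded in the nucleus, made in the cytosol and imported, and is joined inside the mitochondrion to ribosomal RNA transcribed from mitochondrial DNA. Some mitochondrial ribosomal proteins are counterparts of bacterial ones, and others exist only in mitochondria. When T cells are activated through their antigen receptor they enlarge their mitochondria and depend on mitochondrial translation to sustain respiration.

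The cells were taken from male C57BL/6 mice of 8-10 weeks, from spleens or lymph nodes, and CD4+ T cells were enriched by removing other cells with magnetic beads. The 4 groups were Adcy10-/- cells in baseline media with polarizing cytokines, WT cells in baseline media with polarizing cytokines, Adcy10-/- cells in baseline media and WT cells in baseline media, with 3 libraries in each. All groups were cultured for 18 h on plate-bound anti-CD3 antibody (10 µg/mL) with anti-CD28 (2 µg/mL), so that activation was common to all 12 libraries. The protocol also names 20 ng/mL of IL-1β and of IL-23, 25 ng/mL of IL-6 and 1 µg/mL each of antibodies against IFNγ and IL-4, without saying which of them the baseline media held. The labels give no detail of the Adcy10 allele and do not say whether libraries of a group came from separate animals, so p-values measure only the spread between these libraries.

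Levels are given as FPKM, counts of sequenced fragments scaled for transcript length and for the fragments mapped in the library. The targeted gene, Adcy10, stood at 0 FPKM in every one of the 12 libraries, WT included, and so says nothing about the genotypes. All 7 CD4+ T cell markers were well above 1 FPKM in every library, with a summed level of 1310 to 1740 FPKM. Summed B cell markers ranged from 1.96 to 50.2 FPKM and were lowest in the libraries numbered 1 (1.96 to 7.69 FPKM), summed CD8 markers ranged from 8.43 to 14.7 FPKM, and 0 of 4 NK cell markers reached 1 FPKM in any library. Summed red cell markers ranged from 0.443 to 131 FPKM and were highest in the libraries numbered 3 (16.1 to 131 FPKM). In these bulk samples, fewer cells of a type and less RNA per cell cannot be told apart.

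All 77 genes were expressed, with 0 of them under 1 FPKM in any library. Their mean level over the 12 libraries had a median of 53.0 FPKM (quartiles 35.7 to 79.0), against 11.7 FPKM over all tested genes. The subunits were alike in this, with a median of 50.2 FPKM for the large subunit and 60.8 FPKM for the small subunit. For comparison, 77 tested genes of the respiratory chain had a median of 178 FPKM and 81 tested genes of cytosolic ribosomal proteins a median of 1960 FPKM.

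Levels of proteins that join one particle in fixed proportion differed widely as transcripts. In the large subunit, Mrpl52, a protein without a bacterial counterpart, averaged 320 FPKM, and Mrpl12, a protein of the stalk that recruits translation factors, averaged 263 FPKM. They were followed by Mrpl20 at 182 FPKM, Mrpl33 at 157 FPKM and Mrpl30 at 154 FPKM. In the small subunit, Mrps21 averaged 164 FPKM, Mrps16 115 FPKM, Mrps6 109 FPKM, Mrps18c 105 FPKM and Mrps12, a protein of the decoding site, 87.4 FPKM. The lowest genes were Mrpl17 (10.8 FPKM), Mrpl35 (12.7 FPKM) and Mrpl1 (13.9 FPKM) in the large subunit and Mrps25 (6.34 FPKM), Mrps14 (22.2 FPKM) and Mrps31 (22.5 FPKM) in the small subunit. In all, 13 genes averaged over 100 FPKM, 9 of the large and 4 of the small subunit, and 7 averaged under 20 FPKM. The 2 highest genes held 11.4% of the summed level of the 77 and the 10 highest held 33.6%.

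**Figure D1:**
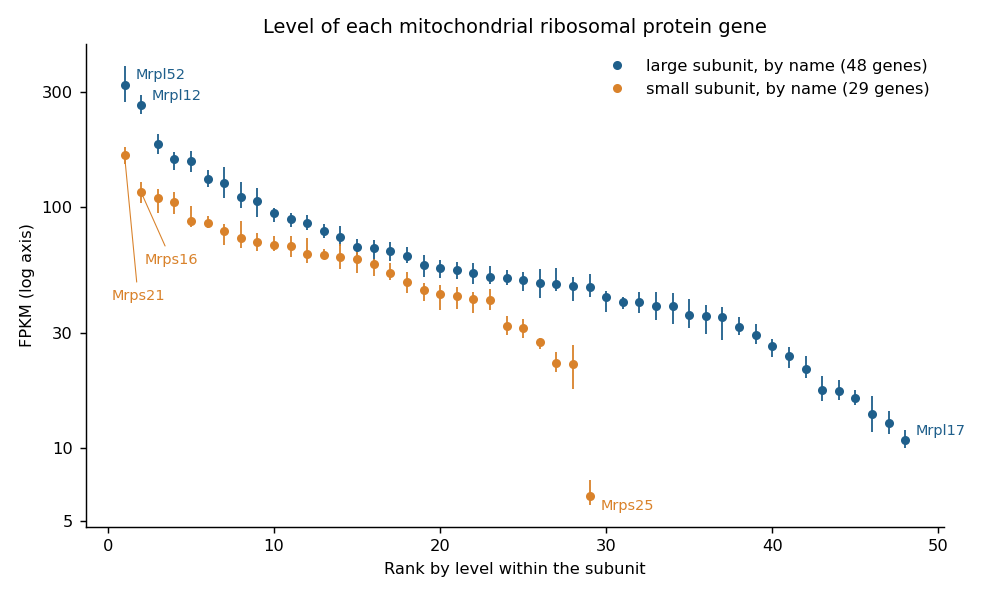
Level of each of the 77 genes on a log FPKM axis, ranked within the large (48 genes) and the small (29 genes) subunit by name. Points are means of the 12 libraries and lines run from the lowest to the highest library, and the lines are short beside the span from Mrps25 (6.34 FPKM) to Mrpl52 (320 FPKM).

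Symbols do not always match the place of a protein. Mrps18a (63.0 FPKM) and Mrps30 (48.6 FPKM) are large-subunit proteins in the known structures, and Mrps36 (53.4 FPKM) is a subunit of the 2-oxoglutarate dehydrogenase complex rather than of the ribosome. With that assignment there were 50 large-subunit and 26 small-subunit genes, with medians of 50.2 and 61.5 FPKM. Another 6 subunits carry other names (Dap3, Ptcd3, Chchd1, Aurkaip1, Gadd45gip1 and Ict1). Their mean levels ran from 23.9 FPKM for Dap3 to 133 FPKM for Chchd1, within the range of the 77.

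The genes varied little between libraries. The ratio of the highest to the lowest of the 12 libraries had a median of 1.22 over the 77 genes (1.10 to 1.53), against 1.34 over the tested genes listed above 0 in every library. The largest ratio among the 77 was that of Mrps14 (1.53), which is described below. The SD on the log2 scale between libraries of a group had a median of 0.0777 over the 77 genes and 0.106 over all tested genes.

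Summed over the 77 genes, the level was 4917, 5167 and 4918 FPKM in Adcy10-/- cells with cytokines and 4980, 5586 and 5156 FPKM in WT cells with cytokines. It was 5086, 5174 and 5089 FPKM in Adcy10-/- cells in baseline media and 5027, 5121 and 5188 FPKM in WT cells in baseline media. The group means were 5001 ± 144, 5241 ± 312, 5116 ± 50.0 and 5112 ± 80.9 FPKM in the same order (SD, n = 3 each), and the groups overlapped apart from Adcy10-/- cells with cytokines replicate 1 and replicate 3 and WT cells with cytokines replicate 1, which lay below all baseline libraries, and WT cells with cytokines replicate 2, which lay above them. The sum was 0.869% to 0.939% of all FPKM in a library.

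The ratio of the summed large-subunit to the summed small-subunit level was 1.85 ± 0.0444 (SD, n = 12 libraries). It was 1.88, 1.86 and 1.90 in Adcy10-/- cells with cytokines and 1.78, 1.82 and 1.81 in Adcy10-/- cells in baseline media, which did not overlap. It was 1.85, 1.89 and 1.93 in WT cells with cytokines and 1.80, 1.87 and 1.86 in WT cells in baseline media, which overlapped. Compared within each replicate number, the ratio was higher with cytokines every time in both genotypes. Mrpl52, which rose with cytokines as given below, is part of the large-subunit sum, and its part in the ratio was not tested.

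WT cells with cytokines replicate 2 stood apart from the other libraries. There, 74 of the 77 genes were above their own mean over the 12 libraries, while 46.6% of all tested genes were. The median deviation from the own mean was 0.112 on the log2 scale for the 77 genes, 0.121 for the respiratory chain and 0.134 for cytosolic ribosomal proteins, and this library had the highest total of FPKM (594750). The fewest genes above their own mean were 12 and 14 in Adcy10-/- cells with cytokines replicates 3 and 1 and 15 in WT cells with cytokines replicate 1. The medians over the 77 genes are given below with and without WT cells with cytokines replicate 2 where they use it.

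**Figure D2:**
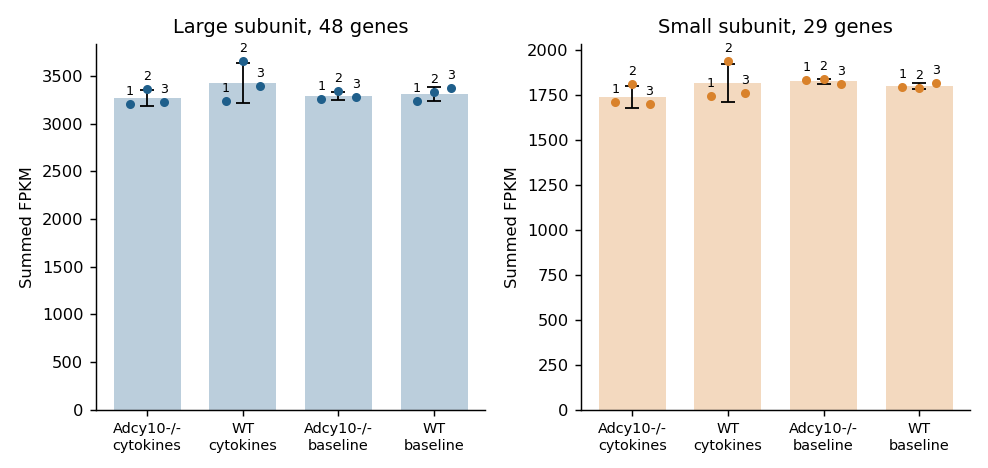
Summed FPKM of the 48 large-subunit genes (left) and the 29 small-subunit genes (right) in the 4 groups. Points are libraries with their replicate number, bars are means and error bars SD (n = 3), and WT cells with cytokines replicate 2 (3651 and 1935 FPKM) is the highest point in both panels.

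**Figure D3:**
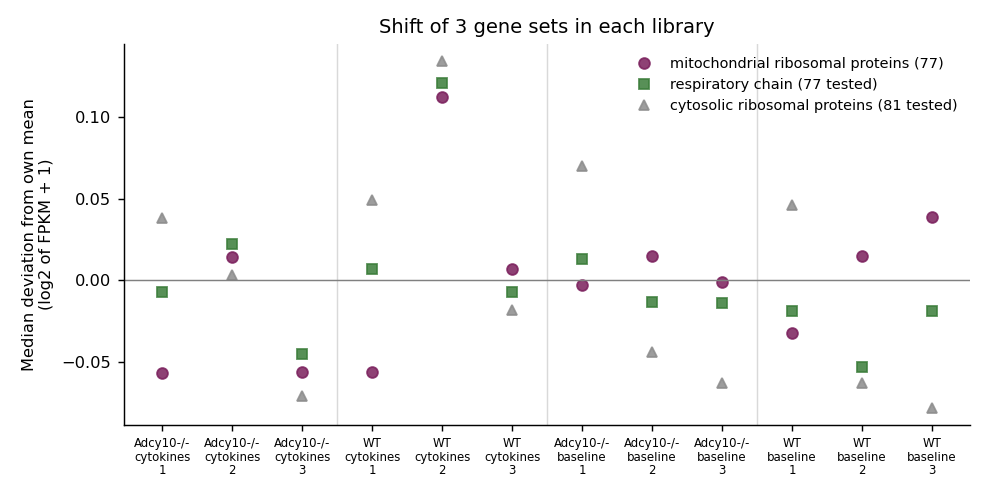
Median deviation of 3 gene sets from their own 12-library mean, on the log2(FPKM + 1) scale, in each library. In WT cells with cytokines replicate 2 all 3 sets were high together (0.112 to 0.134), and in the other 11 libraries the mitochondrial ribosomal protein median stayed between -0.057 and 0.039.

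The first comparison asks what the polarizing cytokines changed. Averaged over both genotypes, Mrpl52 rose by 18.5%, Mrpl45 fell by 13.1% and Mrps6 fell by 12.3%, and the other genes did not pass. Calls are adjusted p under 0.05 from limma on log2(FPKM + 1), adjusted by Benjamini-Hochberg over all 10126 genes. The 3 genes called were 1 up and 2 down of 77, where 13.2% of all tested genes were called, 6.57% up and 6.68% down. The median log2 change was -0.017 for the 77 genes and -0.017 for all tested genes.

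Mrpl52 had 345, 323 and 336 FPKM in Adcy10-/- cells with cytokines, against 291, 317 and 272 FPKM in Adcy10-/- cells in baseline media. It had 353, 383 and 342 FPKM in WT cells with cytokines, against 283, 305 and 288 FPKM in WT cells in baseline media. All 6 libraries with cytokines were above all 6 without. The log2 change was 0.25 ± 0.04 (SE; adjusted p = 0.00396), and the call held without each library in turn and in every other alternative run.

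Mrpl45 is the protein by which the large subunit is held to the inner membrane next to the exit of its tunnel. It had 32.7, 33.7 and 32.0 FPKM in Adcy10-/- cells with cytokines, against 38.5, 35.7 and 39.0 FPKM in Adcy10-/- cells in baseline media. It had 29.8, 34.4 and 34.5 FPKM in WT cells with cytokines, against 39.3, 37.2 and 38.1 FPKM in WT cells in baseline media. The 6 libraries with cytokines were all below the 6 without, and the log2 change was -0.20 ± 0.04 (SE; adjusted p = 0.0104).

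Mrps6, a counterpart of a bacterial small-subunit protein, had 95.7, 107 and 94.0 FPKM in Adcy10-/- cells with cytokines, against 117, 117 and 115 FPKM in Adcy10-/- cells in baseline media. It had 107, 109 and 96.6 FPKM in WT cells with cytokines, against 119, 114 and 112 FPKM in WT cells in baseline media. Again no library with cytokines reached the lowest without, and the log2 change was -0.19 ± 0.04 (SE; adjusted p = 0.0129). An exon of Mrps6 overlaps an exon of Slc5a3 on the same strand, so reads of the 2 may have been split between them. Slc5a3 was listed at 1.64 to 2.57 FPKM with a log2 change of -0.14 ± 0.06 (SE; adjusted p = 0.172).

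Without the 4 libraries numbered 1, only Mrpl52 of these 3 passed, with adjusted p = 0.0749 for Mrpl45 and 0.0897 for Mrps6. Without WT cells with cytokines replicate 2, 5 genes passed, 1 up and 4 down, and the median log2 change was -0.040. Libraries with the same number deviated together in both genotypes. With the number as a block, 7 genes passed, Mrpl33 and Mrpl52 up and Mrpl14, Mrpl37, Mrpl45, Mrps6 and Mrps10 down, where 25.9% of all tested genes passed.

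Markers of cell types also moved with the cytokines. Cd4, the coreceptor by which the libraries' cells are named, had 122.0, 121.3 and 121.9 FPKM in Adcy10-/- cells with cytokines, against 179.1, 144.0 and 162.5 FPKM in Adcy10-/- cells in baseline media. It had 132.9, 122.6 and 119.0 FPKM in WT cells with cytokines, against 172.7, 151.7 and 138.6 FPKM in WT cells in baseline media. The groups overlapped in neither genotype, and over both Cd4 fell by 21.6% (log2 change -0.35 ± 0.06 SE; adjusted p = 0.00344). Cd5, an inhibitory T cell surface receptor, rose by 28.7% over both genotypes (0.36 ± 0.05 SE; adjusted p = 0.00114), and the other 5 T cell markers did not pass.

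Summed myeloid markers were 19.4 to 40.1 FPKM in Adcy10-/- cells with cytokines, against 13.2 to 22.8 FPKM in Adcy10-/- cells in baseline media. They were 38.2 to 109 FPKM in WT cells with cytokines, against 21.5 to 65.7 FPKM in WT cells in baseline media. These ranges overlapped in both genotypes, but within each replicate number the sum was higher with cytokines every time. The 3 tested myeloid markers had a median log2 change of 0.60 in Adcy10-/- cells and 1.37 in WT cells; 0 of them passed in limma in either genotype or over both, and 0 had an unadjusted p under 0.05. Under the block S100a8 passed upward over both genotypes, and 1 B cell marker, Ms4a1, passed downward. The part of these markers in the cytokine results was not tested.

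The promoters of these 3 genes are shown because their transcripts moved in different directions. Each is 300 bases of RefSeq sequence on build GRCm38.p6, plus strand, from 250 bases before the annotated start to 50 after it. Capitals mark matches, on either strand, to the motifs of NRF1 (GCGCA and GCGC with 1 base between them), ETS factors (CCGGAAG), YY1 (AAGATGGC), the E-box bound by Myc and Max (CACGTG) and Sp1 (GGGCGG).
Mrpl52, chr14:54426659-54426958: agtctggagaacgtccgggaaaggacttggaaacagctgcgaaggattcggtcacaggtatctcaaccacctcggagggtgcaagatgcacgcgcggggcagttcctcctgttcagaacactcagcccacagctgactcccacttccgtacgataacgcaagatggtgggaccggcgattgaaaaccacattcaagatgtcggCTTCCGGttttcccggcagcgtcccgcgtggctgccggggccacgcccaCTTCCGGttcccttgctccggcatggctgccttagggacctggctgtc
Mrpl45, chr11:97315466-97315765: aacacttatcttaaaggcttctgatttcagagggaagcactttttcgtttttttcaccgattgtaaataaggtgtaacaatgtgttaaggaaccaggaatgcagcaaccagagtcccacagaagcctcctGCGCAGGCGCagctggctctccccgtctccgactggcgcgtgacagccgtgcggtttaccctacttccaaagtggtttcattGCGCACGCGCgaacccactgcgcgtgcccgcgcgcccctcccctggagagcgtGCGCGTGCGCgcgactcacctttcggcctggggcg
Mrps6, chr16:92058086-92058385: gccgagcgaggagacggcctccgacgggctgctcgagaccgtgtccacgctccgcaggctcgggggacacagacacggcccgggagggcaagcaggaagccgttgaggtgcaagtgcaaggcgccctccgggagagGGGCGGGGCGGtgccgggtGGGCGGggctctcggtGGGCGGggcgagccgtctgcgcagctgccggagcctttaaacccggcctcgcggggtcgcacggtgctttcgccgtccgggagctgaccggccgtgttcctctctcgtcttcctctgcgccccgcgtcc
The Mrpl52 window held 2 ETS matches, the Mrpl45 window 3 NRF1 matches and the Mrps6 window 4 Sp1 matches of which the first 2 overlap by 1 base. A match is a description of the letters and not of binding.

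Promoter windows were found for 68 of the 77 genes, 42 of the large and 26 of the small subunit. ETS matches stood in 25 of the 68 (36.8%), against 9.93% of the windows of all 27025 genes and 23.2% of the 7682 windows of tested genes. NRF1 matches stood in 13 (19.1%), against 5.19% and 13.0%, and YY1 matches in 12 (17.6%), against 3.19% and 6.01%. At least 1 of these 3 stood in 42 windows (61.8%), against 16.4% and 36.9%, and more than 1 of the 3 stood in 8 windows. The E-box stood in 5 windows (7.35%, against 8.09% and 12.5%), Sp1 in 34 (50.0%, against 38.2% and 70.7%) and CCAAT in 27 (39.7%, against 41.1% and 43.3%). TATAAA stood in 5 windows (7.35%, against 15.7% and 7.99%). The cyclic AMP response element TGACGTCA stood in 2 windows, both of the large subunit (2.94%, against 2.03% and 3.98%).

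In Adcy10-/- cells alone, 0 of 77 genes passed for cytokines against baseline media, where limma called 4.27% of all tested genes. At an unadjusted p under 0.05 there were 7 of the 77, against 15.3% of all tested genes. The median log2 change was -0.036 (-0.023 for the large and -0.060 for the small subunit), against -0.020 for all tested genes, and 59 of the 77 were below 0, against 57.6% of all tested genes. Groups without overlap were found for 14 lower genes (12.3% of all tested genes) and for 4 higher ones (9.28%).

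The largest decrease in Adcy10-/- cells was that of Mrps6, whose values are given above, with a log2 change of -0.24 ± 0.06 (SE; adjusted p = 0.0516). It passed without Adcy10-/- cells with cytokines replicate 2 (adjusted p = 0.0251) and without WT cells with cytokines replicate 3 (adjusted p = 0.0392), which enters through the shared estimate of the spread. Among the other lowest were Mrpl45 at -0.19 ± 0.06 (SE; adjusted p = 0.125), Mrpl55 at -0.18 ± 0.08 (SE; adjusted p = 0.343), Mrps10 at -0.18 ± 0.07 (SE; adjusted p = 0.214) and Mrpl14, a protein at the interface of the subunits, at -0.17 ± 0.05 (SE; adjusted p = 0.111). The highest log2 changes were those of Mrpl52 at 0.19 ± 0.06 (SE; adjusted p = 0.131), Mrpl22 at 0.11 ± 0.07 and Mrpl33 at 0.10 ± 0.06. With the replicate number as a block, 4 genes passed in Adcy10-/- cells, Mrpl52 up and Mrpl14, Mrps6 and Mrps34 down, where 10.7% of all tested genes passed.

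Mrpl14 had 53.1, 54.8 and 51.2 FPKM in Adcy10-/- cells with cytokines, against 60.6, 62.8 and 56.1 FPKM in Adcy10-/- cells in baseline media. Mrps34, a protein found only in mitochondrial ribosomes, had 69.6, 70.2 and 65.3 FPKM in Adcy10-/- cells with cytokines, against 78.2, 77.3 and 72.6 FPKM in Adcy10-/- cells in baseline media. Both genes were lower in every library with cytokines than in any library without.

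In WT cells, 1 of 77 genes passed for cytokines against baseline media, Mrpl52, where 4.93% of all tested genes passed (2.65% up and 2.28% down). Its log2 change was 0.30 ± 0.06 (SE; 95% interval 0.16 to 0.44; adjusted p = 0.0213), a rise of 22.9%. The call rested on each of 5 libraries. Its adjusted p was 0.0544 and 0.0734 without WT cells with cytokines replicates 1 and 2, and 0.0638, 0.0516 and 0.0509 without WT cells in baseline media replicates 1, 2 and 3. Mrpl45 stood at -0.21 ± 0.06 (SE; adjusted p = 0.0793) and Mrps26, a small-subunit protein of mitochondria only, at 0.18 ± 0.06 (SE; adjusted p = 0.122). Mrpl33 stood at 0.14 ± 0.06, Mrps6 at -0.14 ± 0.06 and Mrpl53 at -0.13 ± 0.12 (SE). With the replicate number as a block, 3 genes passed in WT cells, Mrpl52 and Mrps26 up and Mrpl45 down, where 14.8% of all tested genes passed.

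At an unadjusted p under 0.05 there were 5 of the 77 genes in WT cells, against 18.5% of all tested genes. The median log2 change was 0.015 (0.017 for the large and 0.012 for the small subunit), against -0.013 for all tested genes, and 47 of the 77 were above 0, against 45.9%. That median was -0.030 without WT cells with cytokines replicate 2, against -0.008 for all tested genes. Then 27 genes were above 0 and 50 below, where 52.5% of all tested genes were below. The median of the 77 genes was -0.002 without WT cells in baseline media replicate 1. Groups without overlap were found for 5 higher genes (10.5% of all tested genes), namely Mrpl10, Mrpl33, Mrpl52, Mrps14 and Mrps26, and for 3 lower ones (10.3%), namely Mrpl45, Mrpl53 and Mrps6.

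**Figure D4:**
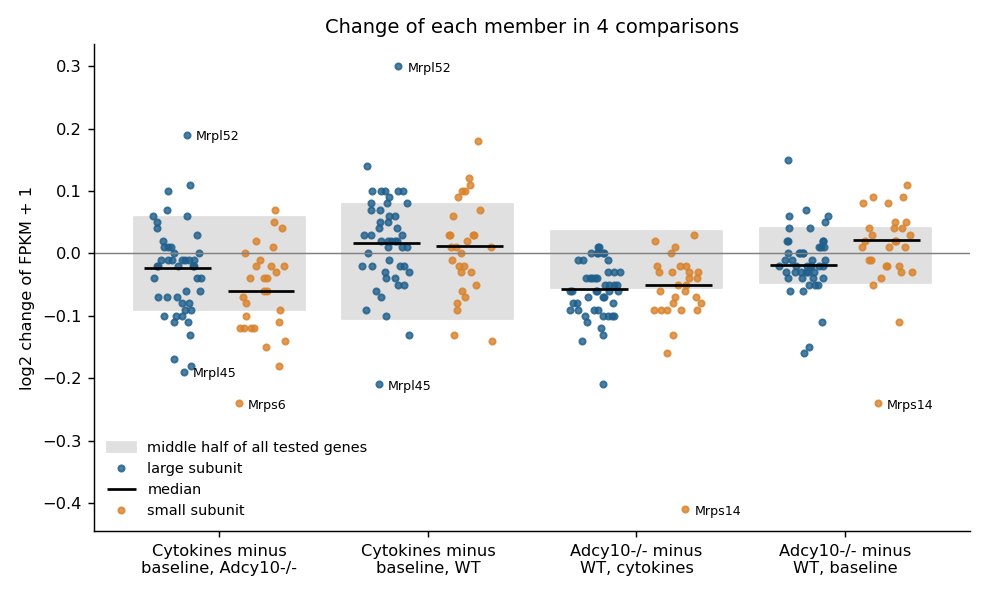
Log2 change of FPKM + 1 of each of the 77 genes in 4 comparisons, large subunit in blue and small subunit in orange, with medians as black lines and the interquartile range of all tested genes in grey. Most points lie within or near the grey boxes. In Adcy10-/- against WT cells with cytokines, the points lie mostly below 0 (70 of 77). Their median there (-0.056) lies just below the lower edge of the grey box (-0.055).

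Partners of the mitochondrial ribosome were read from lists of genes chosen by function. Of 20 assembly factors, averaged over both genotypes, Ddx28 rose and Tfb1m and Fastkd2 fell, where 13.2% of all tested genes passed. Ddx28, an RNA helicase of large-subunit assembly, had 22.3, 20.4 and 20.3 FPKM in Adcy10-/- cells with cytokines, against 14.9, 16.1 and 14.1 FPKM in Adcy10-/- cells in baseline media. It had 21.2, 24.2 and 18.6 FPKM in WT cells with cytokines, against 15.4, 16.2 and 15.8 FPKM in WT cells in baseline media. Its groups overlapped in neither genotype, and its log2 change passed in Adcy10-/- cells (0.46 ± 0.09 SE; adjusted p = 0.0123) and in WT cells (0.40 ± 0.09 SE; adjusted p = 0.0214).

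Tfb1m, which methylates the ribosomal RNA of the small subunit, changed by -0.20 ± 0.08 in Adcy10-/- cells (SE; adjusted p = 0.278) and fell by 0.36 on the log2 scale in WT cells (SE 0.08; adjusted p = 0.0319). It had 5.74, 5.20 and 6.04 FPKM in WT cells with cytokines, against 7.49, 6.66 and 8.48 FPKM in WT cells in baseline media. Fastkd2, an RNA-binding protein needed for the large subunit, fell over both genotypes (-0.16 ± 0.04 SE; adjusted p = 0.0366). It also passed in Adcy10-/- cells with the replicate number as a block (-0.19 ± 0.05 SE; adjusted p = 0.026). The median log2 change of the 20 assembly factors was -0.077 over both genotypes, against -0.017 for all tested genes.

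Of 15 translation factors, 17 mitochondrial aminoacyl-tRNA synthetases, 8 genes of mitochondrial DNA transcription and replication and the 6 subunits with other names, 0 passed without the block in any of the cytokine comparisons. Of them 1 passed with the replicate number as a block, Tefm, an elongation factor of mitochondrial transcription, which was lower in WT cells. Their medians over both genotypes were -0.033, -0.060, -0.009 and 0.006 on the log2 scale. In that limma fit over both genotypes, 1, 1, 1 and 0 of them had an unadjusted p under 0.05, against 26.1% of all tested genes. Of 10 tested regulators of mitochondrial biogenesis, Max, the partner of Myc, fell over both genotypes (-0.23 ± 0.05 SE; adjusted p = 0.00848). Myc itself did not pass over both genotypes (-0.10 ± 0.04 SE; adjusted p = 0.0872). With the replicate number as a block, 3 of the 10 regulators passed over both genotypes, all lower, namely Max, Pprc1 and Myc (adjusted p = 0.0358 for Myc). Of all tested genes, 25.9% passed there. Max then also passed in Adcy10-/- cells (adjusted p = 0.0213) and in WT cells (adjusted p = 0.0299).

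Of the 77 respiratory chain genes tested, 4 rose over both genotypes and 0 fell, where 6.57% of all tested genes rose and 6.68% fell. The 4 are thus no larger a share than among all tested genes. These were Ndufb11 (0.33 ± 0.05 SE; adjusted p = 0.00223), Ndufv3 (0.25 ± 0.05), Ndufa1 (0.15 ± 0.04), all of complex I, and Uqcr11 of complex III (0.16 ± 0.05). Ndufb11 also passed in WT cells (0.41 ± 0.08 SE; adjusted p = 0.0114). Under the block, 2 genes rose in Adcy10-/- cells, Ndufb11 and Ndufv3, where 10.7% of all tested genes passed. In WT cells 3 rose, these and Cox6a1, where 14.8% passed. The respiratory chain median was -0.009 in Adcy10-/- cells and 0.065 in WT cells, against -0.020 and -0.013 for all tested genes. Of 81 cytosolic ribosomal protein genes 0 passed in limma over both genotypes, and 3 had an unadjusted p under 0.05, against 26.1% of all tested genes. With the block 2 up and 1 down passed, against 25.9% of all tested genes, and in WT cells the block called 1 of these genes up. Their medians were -0.003 in Adcy10-/- cells and 0.083 in WT cells. Without WT cells with cytokines replicate 2, the WT medians were 0.028 for the respiratory chain and 0.041 for cytosolic ribosomal proteins.

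The second comparison asks what the loss of Adcy10 changed. In baseline media, 0 of 77 genes passed between Adcy10-/- and WT cells, where 0.0% of all tested genes passed in limma. At an unadjusted p under 0.05 there was 1 gene, Mrps14, against 1.17% of all tested genes. The median log2 change was -0.008 (-0.018 for the large and 0.021 for the small subunit), against -0.004 for all tested genes. Groups without overlap were found for 4 higher genes (2.57% of all tested genes), namely Mrpl46, Mrpl54, Mrps10 and Mrps34, and for 4 lower ones (2.42%), namely Mrpl32, Mrpl47, Mrpl57 and Mrps14. The extremes beside Mrps14 were Mrpl55 at 0.15 ± 0.08 and Mrpl32 at -0.16 ± 0.08 (SE).

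With cytokines, most of the 77 genes were slightly lower in Adcy10-/- than in WT cells, and none passed. The median log2 change was -0.056 (-0.057 for the large and -0.050 for the small subunit), against -0.012 for all tested genes, and 70 of the 77 were below 0, against 57.0%. The same held for 77 of 81 cytosolic ribosomal protein genes (median -0.063) and 68 of 77 respiratory chain genes (median -0.049). Without WT cells with cytokines replicate 2, the median was -0.013 for the 77 genes, against -0.017 for all tested genes. Then 43 of the 77 were below 0, against 60.9% of all tested genes. The median was then -0.019 for cytosolic ribosomal proteins and -0.009 for the respiratory chain. That run kept Adcy10-/- cells with cytokines replicate 2, the highest of its group (median deviation 0.014, against -0.057 and -0.056). Without another single library the median of the 77 genes ranged from -0.039 to -0.091. Without the 4 libraries numbered 1 it was -0.079, with 73 below 0, against 57.7% of all tested genes.

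Called genes were 0 of 77 with cytokines, where 0.0% of all tested genes passed, and at an unadjusted p under 0.05 there were 5, against 1.99%. They were Mrps14, Mrpl47, Mrpl54, Mrps26 and Mrpl24, all lower in Adcy10-/- cells. Groups without overlap were found for 7 lower genes (3.4% of all tested genes), namely Mrpl14, Mrpl24, Mrpl43, Mrpl54, Mrps14, Mrps25 and Mrps26, and for 0 higher ones (1.68%). Summed myeloid markers were 19.4 to 40.1 FPKM in Adcy10-/- cells and 38.2 to 109 FPKM in WT cells with cytokines, ranges that overlapped. Of the 8 markers, 5 reached 1 FPKM in any library, and Csf1r, Emr1 and Itgax were under it in all. In baseline media the sums were 13.2 to 22.8 FPKM in Adcy10-/- cells and 21.5 to 65.7 FPKM in WT cells, which also overlapped. The part of myeloid markers in these results was not tested.

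Mrpl54, a large-subunit protein of mitochondria only, gave genotype differences of opposite sign in the 2 media. With cytokines it had 122, 127 and 121 FPKM in Adcy10-/- cells, against 130, 142 and 135 FPKM in WT cells. In baseline media it had 130, 138 and 132 FPKM in Adcy10-/- cells, against 130, 123 and 128 FPKM in WT cells. The groups did not overlap in either medium, although 1 pair of baseline libraries differed by under 1 FPKM. The difference of the 2 genotype differences was -0.20 ± 0.07 on the log2 scale (SE; unadjusted p = 0.0111; adjusted p = 1.0).

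That difference between the genotypes in their response to cytokines passed for 0 of 77 genes, where 0.0% of all tested genes passed. At an unadjusted p under 0.05 there were 2 genes, Mrpl54 and Mrpl55 (-0.27 ± 0.12 SE), against 1.11% of all tested genes. Its median was -0.053 with 64 of 77 below 0, against 54.2% of all tested genes. Without WT cells with cytokines replicate 2 it was -0.006 with 43 below 0, against -0.016 and 57.8% for all tested genes. With all 12 libraries, the respiratory chain had a median of -0.079 and cytosolic ribosomal proteins one of -0.080. These values share the WT libraries with cytokines with the comparisons above.

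Mrps14, a counterpart of a bacterial small-subunit protein, was lower in Adcy10-/- cells in both media. With cytokines it had 19.2, 20.8 and 17.5 FPKM in Adcy10-/- cells, against 26.7, 25.7 and 24.6 FPKM in WT cells. In baseline media it had 21.9, 19.8 and 18.8 FPKM in Adcy10-/- cells, against 24.5, 24.0 and 23.6 FPKM in WT cells. Every Adcy10-/- library was below every WT library.

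The log2 change of Mrps14 was -0.41 ± 0.07 with cytokines and -0.24 ± 0.07 in baseline media (SE), decreases of 24.5% and 15.6%. Averaged over both media it was -0.33 ± 0.05 (SE; 95% interval -0.44 to -0.22; unadjusted p = 3.94e-05; adjusted p = 0.133), so it did not pass over all 10126 genes. In limma with the replicate number as a block it passed (adjusted p = 0.0163), though the number pairs the baseline libraries less surely. Without the block 0 of 77 genes passed over both media, where 0.0% of all tested genes did. Of the 77, 3 had an unadjusted p under 0.05, against 1.78% of all tested genes. Mrps14 was the member with the smallest p. The highest changes over both media were those of Mrps10 at 0.06 ± 0.05, Mrpl46 at 0.04 ± 0.04 and Mrps11 at 0.03 ± 0.04 (SE). Without each library in turn the averaged change stayed between -0.355 and -0.295, with adjusted p from 0.0974 to 0.567. Its response to cytokines was -0.07 ± 0.07 in Adcy10-/- cells and 0.09 ± 0.07 in WT cells (SE), and neither passed.

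Mrps14 lies on chromosome 1, as Adcy10 does. In the RefSeq annotation of GRCm38.p6, 54 protein-coding genes lie between them, 30 of which were tested here. The other members on that chromosome are farther from Adcy10, with 899 genes between for Mrpl15, 762 for Mrpl30, 730 for Mrps9 and 498 for Mrpl44. Their log2 changes over both media were -0.05 ± 0.06, -0.04 ± 0.04, -0.07 ± 0.05 and -0.01 ± 0.05 (SE) in that order. Whether its place near the targeted gene bears on the level of Mrps14 was not tested. The 77 genes lie on 17 chromosomes, with the most, 10, on chromosome 11.

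The Mrps14 promoter is shown because Mrps14 had the largest genotype difference of the 77 genes. It is RefSeq sequence of the same kind as above, plus strand, with capitals for the same motifs, and it held 3 Sp1 matches, the last on the opposite strand.
Mrps14, chr1:160194965-160195264: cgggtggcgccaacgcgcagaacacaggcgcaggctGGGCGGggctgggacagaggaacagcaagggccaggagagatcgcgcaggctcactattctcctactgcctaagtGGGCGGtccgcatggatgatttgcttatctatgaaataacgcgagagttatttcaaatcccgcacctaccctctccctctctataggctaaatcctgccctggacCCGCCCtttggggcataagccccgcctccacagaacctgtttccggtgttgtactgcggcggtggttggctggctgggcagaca

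Mrpl47, a large-subunit protein near the tunnel exit, was the next lowest over both media. With cytokines it had 32.7, 35.0 and 37.1 FPKM in Adcy10-/- cells, against 36.6, 43.8 and 41.3 FPKM in WT cells. In baseline media it had 36.7, 39.0 and 39.1 FPKM in Adcy10-/- cells, against 40.0, 42.0 and 41.9 FPKM in WT cells. The groups overlapped with cytokines and not in baseline media, and the averaged log2 change was -0.16 ± 0.05 (SE; adjusted p = 1.0). Exons of Mrpl47 overlap exons of Ndufb5 and Actl6a on the opposite strand. Unless reads were counted by strand, which is not given in the sources used here, reads in the overlapping stretches cannot be told apart. Over both media Ndufb5 changed by -0.05 ± 0.04 and Actl6a by -0.03 ± 0.05 (SE). Exon overlaps with another gene were found for 25 of the 77 genes, Mrpl24, Mrpl43, Mrps25 and Mrps26 among them.

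**Figure D5:**
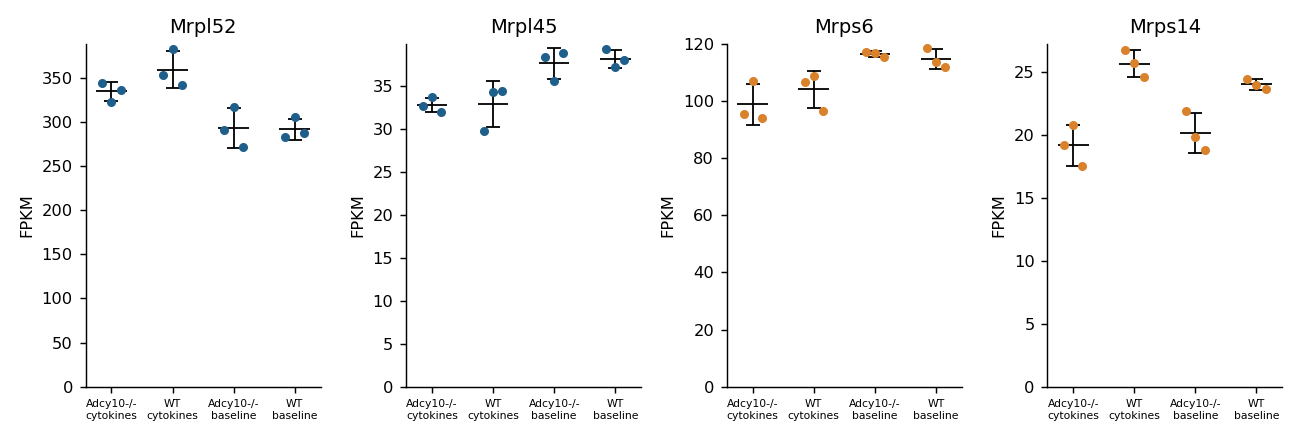
FPKM of Mrpl52, Mrpl45, Mrps6 and Mrps14 in the 4 groups, each axis starting at 0. Points are libraries, horizontal lines are means and error bars SD (n = 3), and libraries with cytokines are above those without for Mrpl52 and below for Mrpl45 and Mrps6, while Adcy10-/- libraries are below WT libraries for Mrps14.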

How the data were processed

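RNA (polyA) from 12 libraries was sequenced by the authors, who deposited 1 FPKM table per library. The submitters' processing notes name build mm9, STAR 2.4.0f1, SAMtools 0.1.19, Cufflinks and HTSeq, without roles. FPKM corrects for length and total reads, so a few abundant genes can move all others. Read depth is unknown; the steps between the lowest FPKM values put relative depth at 0.731 to 1.02 of that of WT cells in baseline media replicate 1.

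Entries of the same name were summed (24488 entries, 23991 names, 258 of them listed several times, none a member). The deposited FPKM values were tested as log2(FPKM + 1) with limma 3.58.1 (R 4.3.3, trended variance, 4 group means over all 12 libraries) on genes at 1 FPKM or more in at least 3 libraries, and Benjamini-Hochberg adjustment ran over 10126 genes. Fold changes understate those of low genes. The code was tested on simulated data. Python 3.11.15 with pandas 2.3.3 and numpy 2.4.6 made the summaries. Exon overlaps are from GENCODE M21 and promoters from RefSeq.

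Members and lists were chosen with earlier results of these data known. Named are Mrps14, passing members, per comparison the 3 highest, 3 lowest and 3 smallest p, the highest 5 and lowest 3 levels per subunit, passing list genes (at most 4 per list) and Myc. Genes named as not overlapping or as called with the block were added after their values were seen.

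Residuals of libraries with the same number correlated at 0.401 to 0.532 between the Adcy10-/- groups, 0.294 to 0.536 between the WT groups and 0.262 to 0.422 between genotypes with cytokines, so the number was taken as pairing these. Between genotypes in baseline media they correlated at 0.074 to 0.523, with a median of 0.371, against 0.27 between genotypes with cytokines. The pairings above imply pairing there too, but it is less sure, since replicate 2 gave only 0.074. Alternatives were a block for replicate number, a pseudocount of 0.1, no filter, median-ratio scaling, quantile normalization, leaving out each library and, chosen after seeing the data, leaving out the 4 libraries numbered 1.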

Additional observations from a re-analysis of the deposited data

How the results depend on the processing

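Of 849 alternative values of 46 results, 817 kept their direction and side of the threshold. The medians of the 77 genes and the differences between subunit medians moved by less than the spread between libraries (SD 0.049 and 0.058 on the log2 scale) in every alternative run. That SD is of single libraries, so it does not make these medians stable. Without WT cells with cytokines replicate 2, the median cytokine change in WT cells went from 0.015 to -0.030. The genotype median with cytokines went from -0.056 to -0.013, and that of the difference between responses from -0.053 to -0.006. The other libraries numbered 2 were kept in that run. Without the 4 libraries numbered 1, these medians were 0.044, -0.079 and -0.074 in the same order. Another pseudocount, no filter, median-ratio scaling and quantile normalization changed no count of called genes by more than 1.5 times.

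With the replicate number as a block, calls for cytokines against baseline media were 4 in Adcy10-/- cells, 3 in WT cells and 7 over both genotypes, against 0, 1 and 3 without it. For Adcy10-/- against WT cells over both media, the block called 1 member, Mrps14 (adjusted p = 0.0163), of 3 genes in all (0.0296%), against 0 without it. Between the baseline groups, residuals of replicate 2 correlated at only 0.074, so the block is less sure there. Among libraries of the other groups, the residuals of each of the 12 libraries correlated best with those of a library of its own number. This is a hint from the data and not the design. The block changed no other count of called members.

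Without each library in turn, calls ranged from 0 to 1 in Adcy10-/- cells, from 0 to 1 in WT cells and from 3 to 5 over both genotypes. Without the 4 libraries numbered 1, calls were 0 in WT cells and 1 over both genotypes. The cause was not tested. The cytokine change of Mrps14 over both genotypes, 0.010 on the log2 scale, ranged from -0.018 to 0.040 without each library in turn. It changed sign without Adcy10-/- cells with cytokines replicate 2 (-0.018), WT cells with cytokines replicate 1 (-0.004) and Adcy10-/- cells in baseline media replicate 3 (-0.013), with adjusted p from 0.862 to 0.977 there.

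With 3 libraries a group and no read counts, changes of this size lie near the spread between libraries, and a gene that did not pass is not shown to be equal between groups.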
